A study of Mus musculus with 2 samples.

Results

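The genes described here are 43 genes of the melanocyte, the pigment cell of skin, hair and eye: its lineage transcription factors, the enzymes and matrix proteins of the melanosome, its ion transporters, its surface receptors, and the machinery that sorts cargo to melanosomes and moves them. They were chosen by name from a fixed list, as the probes whose gene name in the scanner output equals a listed symbol, and stand among 37072 gene names on the arrays. Total RNA of mouse cells given an agent labelled S180 was hybridised to 1 array, and total RNA of mouse cells that received the solvent DMSO, the control, to another. The labels give no cell type, strain, age, dose or exposure time and do not say what S180 is. All 43 genes had probes, 94 in all. A gene is treated as measured here if at least 1 of its probes carried the scanner software's flag for a signal well above background in both samples, and the brightest such probe gives its value. This held for 42 genes, the exception being Ednrb.

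Melanin is made inside melanosomes, organelles related to lysosomes. MITF, a basic helix-loop-helix leucine zipper factor, acts together with SOX10 and PAX3 to switch on the genes of pigment synthesis, and it is itself induced when alpha-MSH binds the MC1R receptor. Tyrosinase carries out the rate-limiting oxidation of tyrosine, TYRP1 and DCT act on later intermediates, and PMEL forms the fibrils on which pigment is laid down. The AP-3 and BLOC complexes and the small GTPases RAB32 and RAB38 deliver cargo to the organelle, and RAB27A, melanophilin and myosin Va carry it along actin.

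MITF is known to bind the 7-letter element TCATGTG, so promoters that hold it are shown first. Among the members, 36 matched a promoter table from RefSeq (build GRCm38.p6, 250 bases before to 50 after a transcription start), with 46 promoters between them. TCATGTG, on either strand, stood in 7 of the 46 (15.2%), against 3.77% of all 32851 promoters of the same length. The 7 belonged to Tyr, Tyrp1, Dct, Trpm1, Mc1r, Slc24a5 and Hps1. The 6-letter CATGTG, which TCATGTG contains, was in 21.7% of the member promoters and 14.2% of all. The palindrome CACGTG was in 26.1% and 7.15%, and ACGTG, the core of the hypoxia response element, which CACGTG contains, in 39.1% and 19.6%. These 2 shares are not separate. Of the 18 member promoters with ACGTG, 12 held CACGTG, as did 2349 of the 6447 with ACGTG among all promoters. CATTGT, a SOX-type motif, was in 6.52% and 12.6%. Each was searched on both strands, and a match is a description of the letters only. The stretches below run in the direction of the gene, end at or before the start site, and have the element in capitals.
Tyr (chr7:87493513-87493574, minus strand): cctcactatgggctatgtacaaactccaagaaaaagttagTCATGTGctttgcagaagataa
Tyrp1 (chr4:80834126-80834212, plus strand): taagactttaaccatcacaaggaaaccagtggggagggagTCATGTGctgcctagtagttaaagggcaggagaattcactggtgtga
Dct (chr14:118052351-118052437, minus strand): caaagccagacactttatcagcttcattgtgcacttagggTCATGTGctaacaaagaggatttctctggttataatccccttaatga
Trpm1 (chr7:64153653-64153739, plus strand): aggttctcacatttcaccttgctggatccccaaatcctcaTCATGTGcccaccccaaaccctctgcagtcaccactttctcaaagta
Mc1r (chr8:123406990-123407076, plus strand): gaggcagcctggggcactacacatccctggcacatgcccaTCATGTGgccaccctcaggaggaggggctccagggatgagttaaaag
The element begins 22 bases before the annotated start in Tyr, 47 in Tyrp1, 52 in Mc1r, 142 in Trpm1 and 151 in Dct. Dct held it a second time, in the other direction, beginning 232 bases before its start. The genes that carry it differed in brightness on the arrays: Dct and Tyrp1 were among the brightest genes, Tyr was at an intermediate signal, and Trpm1 was close to background.

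The non-control probes were dimmer on the S180 array, with a 75th percentile of signal of 615.5 against 747.9 on the DMSO array. Of 59305 non-control spots, 36717 were well above background with S180 and 35921 with DMSO, and 0 were saturated. Over all genes the threshold of 2-fold was passed by 121 genes higher (0.582%) and 35 lower (0.168%) of 20782 measured, and the threshold of 1.5-fold by 640 higher (3.08%) and 356 lower (1.71%). That split depends on the scaling: it was 533 higher and 453 lower with quantile normalization, 201 and 1873 without scaling, and 146 and 2979 on the scale of spike-in transcripts added to both samples. Before scaling, the 8 spike-in probes were brighter on the S180 array by a mean of 0.074 (log2, SD 0.041). With 1 array per group there is no replicate, so that no p-value is given, and an effect of S180 cannot be told apart from a difference between the samples or arrays. The error given is technical. It is the SD of a difference between single spots, from probes printed many times: 0.042 (log2) at high signal (262 probes), 0.072 at intermediate signal (6 probes) and 0.266 at low signal (11 probes). It leaves out the culture, the RNA preparation and the labelling.

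Genes of the pigment program were among the brightest on both arrays. Of 7 melanocyte markers (Tyr, Tyrp1, Dct, Pmel, Mlana, Mitf and Sox10), which are also members of the list, all were measured, and their summed signal was 800049 in S180-treated cells and 868102 in DMSO-treated cells. Among 60 markers of 13 other cell types, 31 were measured and 0 lay in the brightest 10% of genes on both arrays. The list that came nearest was that of Schwann cells, which share the neural crest origin and SOX10 with melanocytes. All 6 of its genes were measured, and their summed signal was 35029 in S180-treated cells and 41456 in DMSO-treated cells. Of the retinal pigment epithelium list, a pigmented cell type of another origin, 1 of 6 genes was measured, and its summed signal was 21.5 in S180-treated cells and 30.9 in DMSO-treated cells. The defining markers Rpe65, Best1, Otx2, Lrat and Rgr were not well above background. Of the keratinocyte markers Krt14 and Trp63 were measured and Krt5, Krt15 and Dsg3 were not. Krt14 was near background, with 17.1 in S180-treated cells and 22.0 in DMSO-treated cells, and Trp63 was measured on 1 of its 4 probes. Measured markers of blood cells included Ptprc, with a signal of 1418 in S180-treated cells and 1891 in DMSO-treated cells, on 1 of its 7 probes. Lck had 1861 in S180-treated cells and 2064 in DMSO-treated cells, while Tyrobp, Adgre1, Cd8a and Cd79a were not measured. Of 6 fibroblast markers 4 were measured, with a summed signal of 1385 in S180-treated cells and 2386 in DMSO-treated cells. Col1a2, a collagen chain, had 639.5 in S180-treated cells and 1378 in DMSO-treated cells, a scaled log2 difference of -0.83. It was the 1 of these past 1.5-fold lower, where 1.71% of all measured genes were. Col1a1, another collagen chain, had 512.3 in S180-treated cells and 630.1 in DMSO-treated cells, a difference of -0.02. Dcn was at -0.38 and Pdgfra at -0.48. The part of other cells in the differences below was not tested, and fewer cells of a type and less RNA per cell cannot be told apart in such samples.

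**Figure D1:**
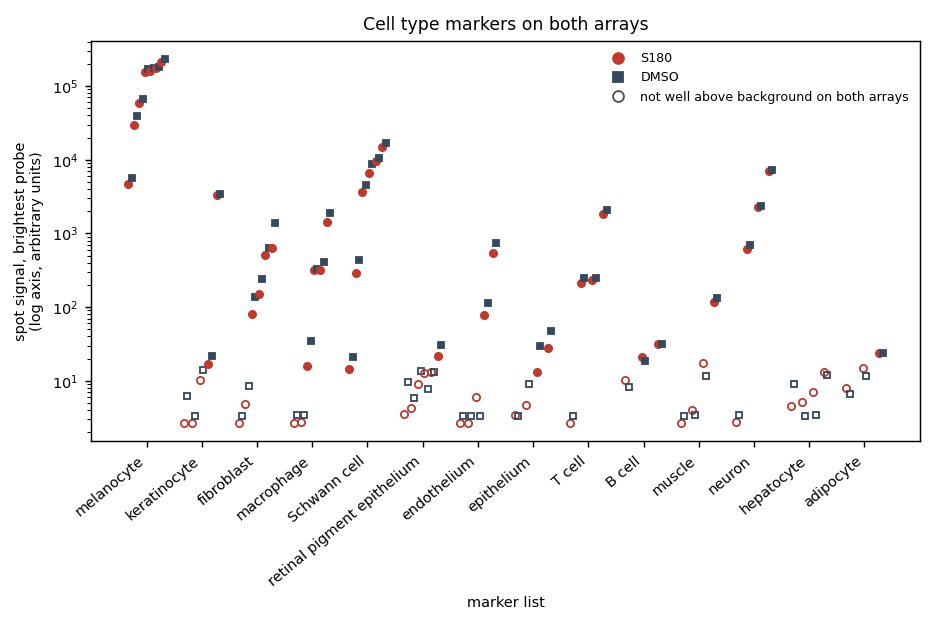
Spot signal of the brightest probe of each marker gene (vertical log axis, arbitrary units) for 14 marker lists (horizontal axis), with S180 as red circles and DMSO as dark squares, and open symbols for genes not well above background on both arrays. The melanocyte list sits highest, with 6 of its 7 genes at 29765 or more in S180-treated cells and at 39281 or more in DMSO-treated cells, and the Schwann cell list follows.

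With the arrays scaled on their 75th percentile, no pigment cell gene passed the 1.5-fold threshold on its brightest probe. Of the 42 measured, 0 were 1.5-fold higher and 0 were 1.5-fold lower, where 3.08% and 1.71% of all measured genes were. At such shares few calls would fall in a list of this size. The count of 0 lower depends on the scaling. Without scaling 5 members were 1.5-fold lower (Hps3, Hps5, Kit, Oca2 and Trpm1; 9.01% of all measured genes), and on the spike-in scale 6 were (these and Rab27a; 14.3% of all). The differences, S180 minus DMSO on the log2 scale after scaling each array on its 75th percentile, ran from -0.43 (Oca2) to 0.26 (Dct), with a median of -0.06 against 0.00 for all measured genes. Their SD was 0.18 against 0.29 for all measured genes, which are mostly dimmer. With genes split by signal into 10 classes of equal size, the SD was 0.18 in the brightest class and 0.21 in the next. These classes held 18 and 10 of the members. The interquartile range was 0.28 for the members, 0.30 for all measured genes and 0.20 for the genes of those 2 classes. Beyond 2 SD of a single-spot difference lay 27 of the 42, 15 lower and 12 higher, where 41.2% of all measured genes did. That share covers genes of every brightness, and the single-spot SD is smaller at high signal. The members were brighter than most genes, and 17 of the 42 stood in the brightest 10% on both arrays (9.6% of all measured genes). In sign, 17 lay above 0 and 25 below (all measured genes: 49.1% below 0), and the split was 9 above and 33 below with quantile normalization and 14 above and 28 below with cyclic loess. Without scaling the S180 signal was the lower in 42 of 42 measured members and in 86% of all measured genes.

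The differences depended on the signal, among all genes as well as among these. With the measured genes divided by signal into 10 classes of equal size, the brightest class had a median difference of 0.08, and the next 5 classes had medians between -0.05 and -0.01. The 193 genes in the brightest 1% on both arrays had a median of 0.21 (quartiles 0.16 and 0.30). When each member was set beside the genes of its own class, 18 of the 42 lay between the quartiles, 19 below the lower quartile and 5 above the upper one, where 25% of genes lie on either side by construction. The members below the lower quartile were 5 of the 6 measured receptor genes, all 3 melanosome transport genes, 7 of the 15 sorting genes, 2 of the 7 channels and transporters (Oca2 and Trpm1) and 2 of the 5 lineage factors (Sox10 and Tfap2a), and none of the 6 enzyme and matrix genes. Those above the upper quartile were Dct, Atp7a, Bloc1s3, Lyst and Cd63. The brightest class is coarse at its top. Beside the genes of the brightest 1%, Dct (0.26) and Cd63 (0.20) lay between the quartiles, and Tyrp1 (0.14) lay below the lower one.

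**Figure D2:**
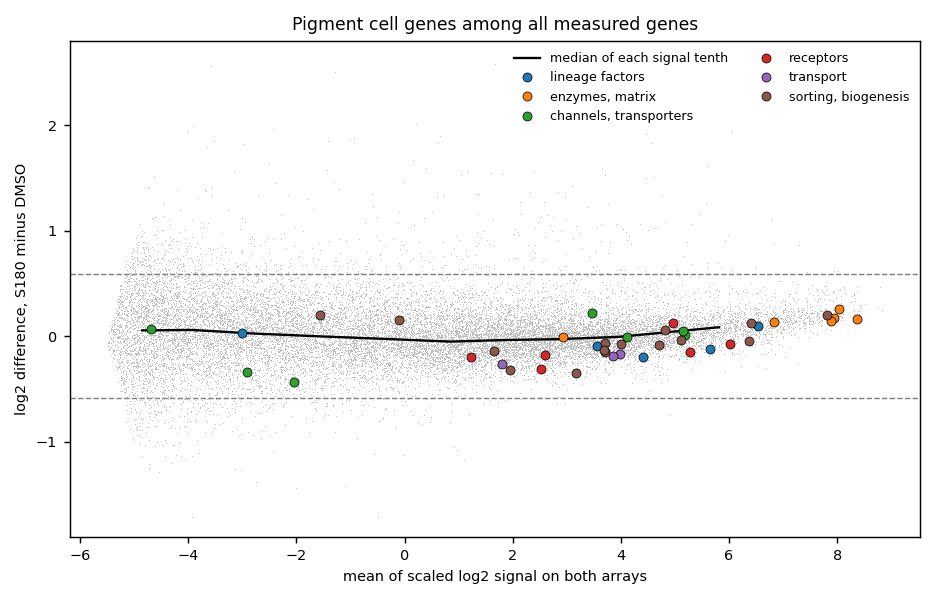
Log2 difference, S180 minus DMSO (vertical axis), against the mean scaled log2 signal on both arrays (horizontal axis) for all 20782 measured genes (grey) and the 42 measured pigment cell genes (coloured by role), with the median of each signal class as a black line and 1.5-fold as dashed lines. All coloured points lie between the dashed lines, and those at the far right lie above 0 with the bulk of the brightest genes.

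The lineage transcription factors were present on both arrays with differences from -0.20 to 0.10. Mitf, the master regulator of the lineage, had a signal of 59270 in S180-treated cells and 67411 in DMSO-treated cells, which placed it at rank 596 in S180-treated cells and rank 575 in DMSO-treated cells among the 20782 measured genes. A rank orders the signals of different probes, which hybridise with different strength. It is given as a description of brightness and not as a comparison of RNA amounts. The scaled difference of Mitf was 0.10, and it was -0.04 with quantile normalization. The probe used for Mitf maps to chromosome 6, positions 97971229 to 97971288, in build mm9, the build of every probe position given here. The other 3 gave -0.11, -0.16 and 0.08, so that its probes differ in sign. Sox10, the neural crest factor that acts upstream of Mitf, had a signal of 29765 in S180-treated cells and 39281 in DMSO-treated cells, with a difference of -0.12. Pax3, a paired box factor of melanoblasts, had a signal of 7028 in S180-treated cells and 9109 in DMSO-treated cells. Its difference was -0.09, and its other probe gave 0.17. Tfap2a, an AP-2 factor that works beside MITF, had a signal of 12136 in S180-treated cells and 16912 in DMSO-treated cells. It gave the lowest value of the 5, -0.20, which is -4.75 times the SD of a single-spot difference, and all 4 of its probes were below 0 (-0.21 to -0.01). Over all genes in its signal class the differences had an SD of 0.21. Lef1, a nuclear partner of beta-catenin, was dim, with a signal of 77.0 in S180-treated cells and 91.9 in DMSO-treated cells and a difference of 0.03.

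The enzymes and matrix proteins of the melanosome were the brightest group. Of the 6 genes, 5 were in the brightest 10% on both arrays (9.6% of all measured genes were) and 4 in the brightest 1% (0.929% of all). The 6 together made up 55.5% of the summed member signal in S180-treated cells and 52.8% in DMSO-treated cells. Mlana, which encodes the melanosomal protein MART-1, was the brightest member, with a signal of 215584 (rank 20) in S180-treated cells and 233546 (rank 10) in DMSO-treated cells. Dct, dopachrome tautomerase, had 176424 (rank 41) in S180-treated cells and 179334 (rank 44) in DMSO-treated cells. Pmel had 161156 (rank 71) in S180-treated cells and 174240 (rank 54) in DMSO-treated cells. Tyrp1 had 153198 (rank 90) in S180-treated cells and 168608 (rank 70) in DMSO-treated cells. These 4 genes thus stood near the top of both arrays. Gpnmb, a glycoprotein related to PMEL that macrophages also express, had 72881 in S180-treated cells and 80862 in DMSO-treated cells. Tyr, the rate-limiting enzyme, was far less bright, with 4651 (rank 5019) in S180-treated cells and 5683 (rank 5012) in DMSO-treated cells.

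**Figure D3:**
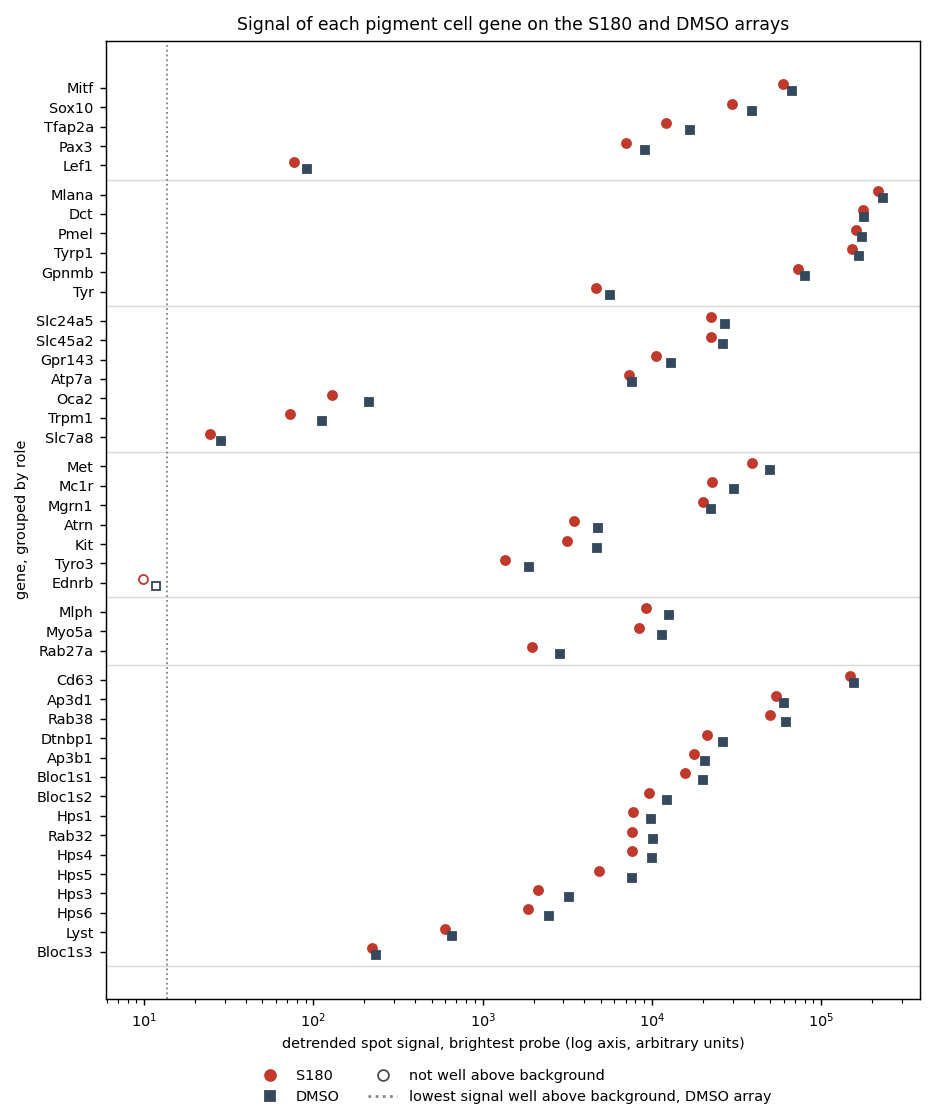
Detrended spot signal of the brightest probe of each gene (horizontal log axis, arbitrary units), by role from top to bottom, with S180 (red circle) above DMSO (dark square) in each row. Signals run from 24.5 (Slc7a8) to 215584 (Mlana) on the S180 array, Ednrb (open symbols) lies below the dotted line of the lowest signal well above background on the DMSO array, and the S180 symbol lies left of the DMSO symbol in every row.

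The scaled differences of the enzyme and matrix group were small and depended on the scaling. Dct was at 0.26, Pmel and Mlana at 0.17 each, Tyrp1 at 0.14 and Gpnmb at 0.13, while Tyr was at -0.01. Of the 5 members in the brightest 1% (these 4 brightest genes and Cd63), 4 lay between the quartiles of all genes that bright. The exception was Tyrp1, which lay below the lower quartile. The 5 positive values of the group were between 0.05 and 0.16 with cyclic loess, and with quantile normalization they ran from -0.12 (Mlana) to 0.01 (Dct), so that no direction is given for the group. The brightest probes of Dct and Tyrp1 were also at odds with the dimmer ones. For Dct the dimmer probe gave -0.10, and for Tyrp1 the other 2 gave -0.05 and -0.23. For Mlana both probes were positive, at 0.17 and 0.28, and for Tyr the 2 dimmer probes gave -0.14 and -0.11.

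**Figure D4:**
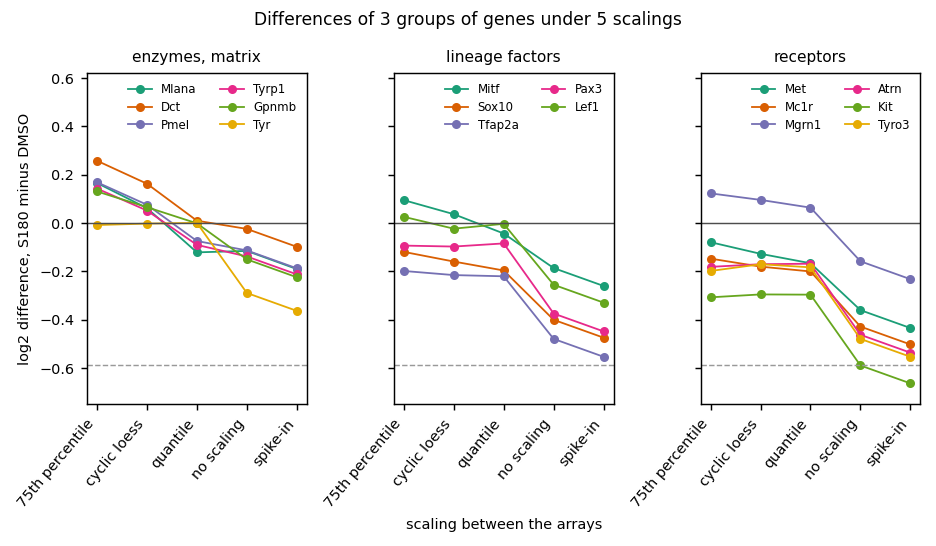
Log2 difference, S180 minus DMSO (vertical axis), of the enzyme and matrix genes, the lineage factors and the measured receptors (3 panels) under 5 scalings of the arrays (horizontal axis), with 1.5-fold lower as a dashed line. Of the 5 positive values of the enzyme and matrix genes, Dct (0.01) alone stays above 0 with quantile normalization, and all values lie below 0 without scaling and on the spike-in scale.

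The channels and transporters split into bright and dim genes. Slc45a2, which raises melanosome pH, had a signal of 22253 in S180-treated cells and 26174 in DMSO-treated cells. Slc24a5, a potassium-dependent sodium-calcium exchanger, had 22452 in S180-treated cells and 27017 in DMSO-treated cells. Their differences were 0.05 and 0.01. Gpr143, a melanosomal G protein-coupled receptor, had 10650 in S180-treated cells and 12996 in DMSO-treated cells, with a difference of -0.01. Atp7a, the copper pump that loads tyrosinase, had 7362 in S180-treated cells and 7672 in DMSO-treated cells. Its difference of 0.22 was the largest positive value outside the brightest 1%, its other probes gave 0.26 and 0.37, and it stayed between 0.19 and 0.23 with cyclic loess, quantile normalization and normexp. On the spike-in scale it was -0.13. Slc7a8, a neutral amino acid transporter, was the dimmest measured member, with 24.5 in S180-treated cells and 28.3 in DMSO-treated cells.

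Oca2 and Trpm1 had the lowest values within this group, at low signals. Oca2, a melanosomal anion transport protein, had a signal of 129 in S180-treated cells and 212 in DMSO-treated cells. This is a difference of -0.43, or 1.35-fold lower, and -1.63 times the SD of a single-spot difference at that brightness. Its other probe gave -0.05. Trpm1, a cation channel gene known as a MITF target, had 72.5 in S180-treated cells and 112 in DMSO-treated cells on its brightest probe, a difference of -0.34. It had 8 probes, 7 of them measured. The other 6 measured probes gave -0.81, -0.45, 0.00, -0.32, -0.60 and -0.91, so that 6 of 7 were below 0 and 3 were past 1.5-fold. Those 3 were the only ones among the 84 measured member probes to be 1.5-fold lower, where 1.67% of all measured probes were. All 7 were dim, with signals of 72.5 or less in S180-treated cells and 115.4 or less in DMSO-treated cells. With normexp background correction the brightest probe gave -0.08. That setting adds an offset of 50 to each signal, which draws differences of dim probes toward 0. On chromosome 7 the brightest probe spans 71371607 to 71371666, and the one with the lowest value is listed from 71393170 to 71412870, a span longer than the probe. The first 30 of the 60 bases of each are given to identify them.
Trpm1, brightest probe: tgaacccccagccaaaggcaagaagaaaaa
Trpm1, lowest-value probe: tccagcgacgagcgcatccgggtcacaagc

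Of the surface receptors and their accessory proteins, 5 of the 6 measured had negative differences. Mc1r, the alpha-MSH receptor, had a signal of 22718 in S180-treated cells and 30573 in DMSO-treated cells, with a difference of -0.15 on its single probe. Kit, the receptor for stem cell factor that melanoblasts need to survive and migrate, had 3173 in S180-treated cells and 4771 in DMSO-treated cells. Its difference of -0.31 was -7.39 times the SD of a single-spot difference, which covers spots within an array only. Over all genes in its signal class the differences had an SD of 0.22. The other probes of Kit gave -0.19 and -0.34. Kit thus had 3 probes of 1 sign, though all 3 read the same 2 samples. Its difference was -0.295 with cyclic loess, -0.296 with quantile normalization, -0.35 with normexp and -0.28 with the mean of its probes. On the spike-in scale it was -0.66. There and without scaling all 42 measured members were below 0, so that those 2 settings say nothing particular about Kit. The filter on dim probes did not touch its value. Met, the receptor of hepatocyte growth factor, was bright, with 38831 in S180-treated cells and 49845 in DMSO-treated cells and a difference of -0.08. Tyro3, a receptor kinase, was at -0.20. Atrn, attractin, and Mgrn1, a ubiquitin ligase, are both needed in mouse for the agouti protein to switch pigment type, and they had differences of -0.18 and 0.12. Ednrb, the endothelin receptor of melanoblasts, had 3 probes, none well above background, the brightest with a signal of 9.89 in S180-treated cells and 11.8 in DMSO-treated cells, so that no fold is given.

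All 3 genes of the actin-based transport complex had negative differences on their brightest probes. Rab27a, the GTPase on the melanosome membrane, had a signal of 1963 in S180-treated cells and 2862 in DMSO-treated cells and a difference of -0.26, but its dim second probe gave 0.32. Mlph, melanophilin, which links RAB27A to the motor, had 9211 in S180-treated cells and 12603 in DMSO-treated cells. Its probes gave -0.17 and -0.34. Myo5a, the motor itself, had 8358 in S180-treated cells and 11539 in DMSO-treated cells, and its 4 probes ran from -0.18 to -0.04. Within the scalings relative to other genes (cyclic loess, quantile, normexp) these brightest probes stayed between -0.31 and -0.18. With the mean of both probes Rab27a was at 0.03.

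The sorting machinery was measured in full, all 15 genes, with differences from -0.35 to 0.20. The lowest values were those of Hps5 and Hps3, which encode 2 of the 3 subunits of BLOC-2, a complex that directs cargo carriers to melanosomes. Hps5 had a signal of 4904 in S180-treated cells and 7585 in DMSO-treated cells, with a difference of -0.35, or -8.36 times the SD of a single-spot difference. That SD covers spots within an array only, and over all genes in the signal class of Hps5 the differences had an SD of 0.22. Hps3 had 2123 in S180-treated cells and 3221 in DMSO-treated cells, with a difference of -0.32, and Hps6, the third subunit, was at -0.14. The dimmer probes of Hps5 (-0.19) and Hps3 (-0.14 each) gave smaller values of the same sign. The 2 subunits of BLOC-3, the exchange factor for RAB32 and RAB38, were nearer 0, with Hps1 at -0.07 and Hps4 at -0.13. Rab38 had a signal of 49730 in S180-treated cells and 62481 in DMSO-treated cells and a difference of -0.05, and Rab32 was at -0.15.

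The 2 listed subunits of AP-3, the coat that sorts tyrosinase, had positive values, with Ap3b1 at 0.06 and Ap3d1, which had a signal of 54090 in S180-treated cells and 60428 in DMSO-treated cells, at 0.12. The BLOC-1 genes, for the complex that forms the carriers, were at -0.09 (Bloc1s1), -0.08 (Bloc1s2), 0.20 (Bloc1s3) and -0.03 (Dtnbp1). Ap3b1 and Ap3d1 lay within 0.04 of the median of genes as bright. Cd63, a tetraspanin that helps sort PMEL, was the 1 member whose probe was printed repeatedly. Its spot signals ran from 141457 to 151419, with a median of 148240, in S180-treated cells (10 spots kept). In DMSO-treated cells they ran from 155350 to 160418, with a median of 156237 (8 spots kept). Before scaling the S180 signal was thus the lower, as it was in 86% of all measured genes. After scaling, Cd63 averaged 7.91 ± 0.03 (log2, SD, n = 10 spots) in S180-treated cells and 7.71 ± 0.02 (SD, n = 8 spots) in DMSO-treated cells. The order of the arrays was thus opposite before and after scaling, and with quantile normalization the difference was -0.06.

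Lyst, a lysosomal trafficking regulator whose mutation causes the beige coat of mice, had higher values on its dimmer probes. The brightest had a signal of 601 in S180-treated cells and 657 in DMSO-treated cells, a difference of 0.15. The other 3 measured probes gave 0.53, 0.57 and 0.69, so that the mean over 4 probes was 0.49. The last of these was the 1 member probe that was 1.5-fold higher, of 84 measured, where 3.21% of all measured probes were. It had a signal of 50.7 in S180-treated cells and 38.1 in DMSO-treated cells. On chromosome 13 it spans 13869387 to 13869446, and the brightest one 13870632 to 13870691.
Lyst, brightest probe: ctgtcactcctaaagtccacttcagaacag
Lyst, highest-value probe: cagcagcgtgtgaagctgcccatgttctac
Across the 23 members with 2 or more measured probes, the median range between probes of a gene was 0.18, against 0.19 for 7387 such genes in all. In 7 of the 23 the probes differed in sign.

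**Figure D5:**
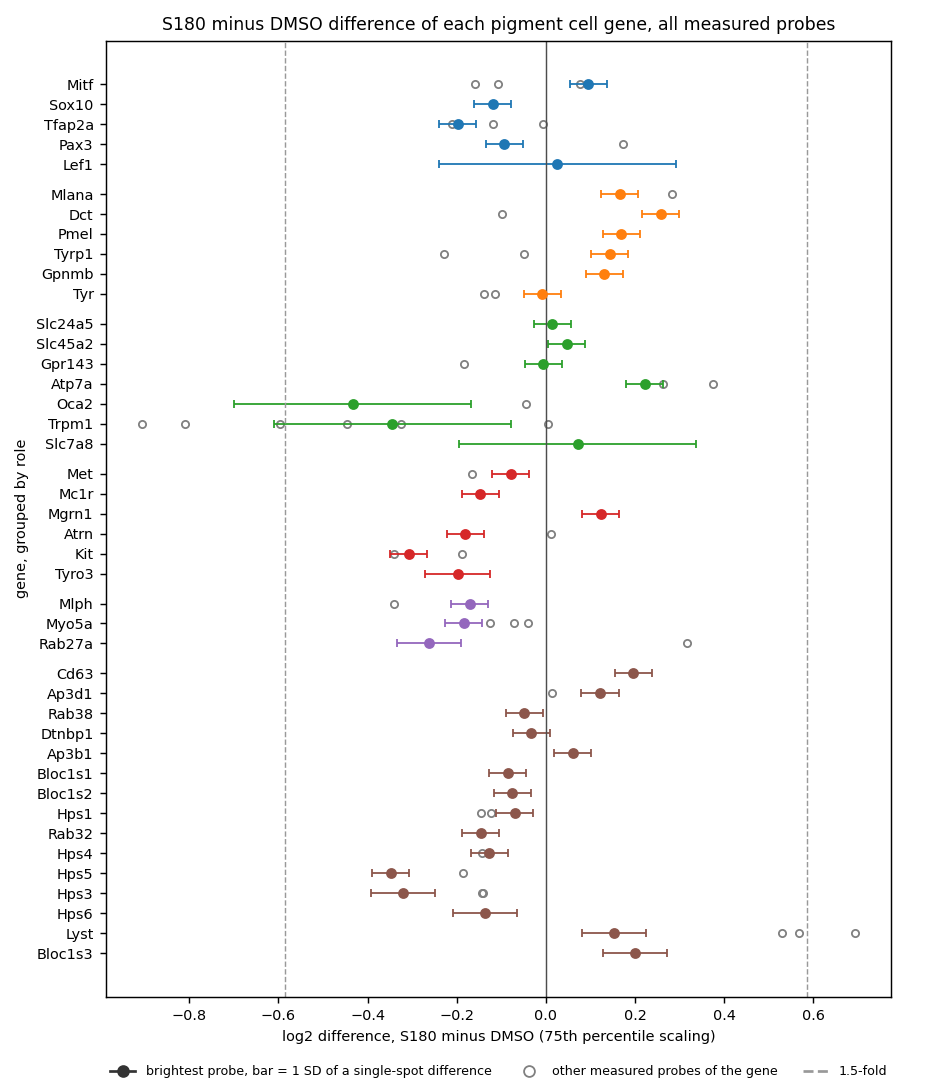
Log2 difference, S180 minus DMSO (horizontal axis), of the brightest probe of each measured gene (filled, bar of 1 SD of a single-spot difference at that brightness) and of its other measured probes (open), by role. The filled points lie between the dashed lines of 1.5-fold, and the open points past them belong to Trpm1 (3) and Lyst (1).

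Other genes of the same pathways, 92 in all, were also looked up. Of them 90 had a probe of that name, 81 were measured, 1 was 1.5-fold higher, 0 were 1.5-fold lower, and the median difference was -0.02. Of all measured genes 3.08% were 1.5-fold higher and 1.71% lower, so that few calls would fall in a list of this size. The 1 was Slc7a11, the cystine exchanger whose loss causes the subtle gray coat of mice by limiting pheomelanin, with a signal of 6326 in S180-treated cells and 4503 in DMSO-treated cells and a difference of 0.77. Without scaling and on the spike-in scale it was short of 1.5-fold. It belongs to a list of 9 measured modifiers of pigmentation, of which 7 were above 0 and 2 below, with a median of 0.065 and Gsta4 lowest at -0.24. Mif, a cytokine with dopachrome tautomerase activity, was at 0.40, with a signal of 153348 in S180-treated cells and 141358 in DMSO-treated cells.

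Ligands of the lineage were dim or not measured, and of the 5 measured, 1 was above 0 and 4 below. Pomc, the precursor of alpha-MSH, had a signal of 303 in S180-treated cells and 520 in DMSO-treated cells (-0.50), and Kitl, the ligand of KIT, was at -0.25. Edn1, an endothelin, was at 0.26, and Gas6, a ligand of TYRO3, and Agrp, an agouti relative, were at -0.08 and -0.06. Edn3 and Hgf, ligands of EDNRB and MET, were not well above background on both arrays, and Asip was not analysed here. Of 17 measured signalling and transcription regulators 8 were above 0 and 9 below, with a median of -0.02 and a range from -0.49 (Tfec) to 0.29 (Irf4). Snai2, a zinc finger factor needed by melanoblasts, was at -0.44 and Tbx2, a T-box factor of the lineage, at -0.38, while the MITF relatives Tfe3 and Tfeb were at 0.22 each and Tfec was at -0.49 with signals of 14.5 in S180-treated cells and 24.8 in DMSO-treated cells. Sox5 and Zeb2 were at 0.00 and -0.08, and Zeb1, Tbx3 and Foxd3 were not measured. Of 6 measured MITF-regulated genes outside pigment 1 was above 0 and 5 below, with a median of -0.09. Ppargc1a, a coactivator of mitochondrial genes, was at -0.30, Cdk2, a cell cycle kinase, at -0.22, Acp5, a phosphatase of osteoclasts, at -0.10, Apex1, a DNA repair enzyme, at -0.08, Cited1, a transcription coregulator, at -0.02, and Bcl2, a survival protein, at 0.20.

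Of 28 other measured genes of the sorting and traffic machinery 10 were above 0 and 18 below, with a median of -0.03 and a range from -0.29 (Sytl2) to 0.46 (Stx3). The other AP-3 genes were at 0.04 (Ap3m1), -0.02 (Ap3s1) and -0.06 (Ap3s2), and the other BLOC-1 genes at -0.19 (Bloc1s4), -0.0048 (Bloc1s5), -0.09 (Bloc1s6) and -0.05 (Snapin). Of the HOPS tethering genes Vps16 was the lowest at -0.15 and Vps41 the highest at 0.06. Stx3, a SNARE protein of melanosome traffic, was at 0.46, and Sytl2, a RAB27A effector, at -0.29. Of 16 measured ion, copper, pH and processing genes 9 were above 0 and 7 below, with a median of 0.05. Furin, a protease that cleaves PMEL precursors, had a signal of 165796 in S180-treated cells and 171920 in DMSO-treated cells and a difference of 0.23. Bace2, another protease that processes PMEL, was at 0.13, Slc31a1, a copper importer, at 0.17, Atox1, a copper chaperone, at 0.09, and Mfsd12, a transporter that affects coat color, at -0.04. The lowest of these genes were Clcn7, a lysosomal chloride transporter, at -0.22, Tpcn2, an endolysosomal cation channel, at -0.21, Slc36a1, an amino acid transporter, at -0.17, Fig4, a phosphoinositide phosphatase, at -0.16, and Ostm1, the partner of CLCN7, at -0.11, and the highest was Slc17a5, a lysosomal sialic acid transporter, at 0.24.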

How the data were processed

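Each of 2 RNA samples was hybridised to 1 Agilent mouse expression array (1 colour, Cy3). The intensity of each spot was deposited by the authors as Agilent Feature Extraction 10.7.1.1 gave it, with local background correction off, a fitted spatial background removed, multiplicative detrending and surrogates for dim spots, per the file headers. Raw mean and background intensity columns, as deposited, served normexp, which was run with an offset of 50. How the deposited log2 table was made is not stated in the labels or headers. It has identical quantiles in both columns and served as an alternative. Flags deposited as 0 or 1 (other) marked spots.

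Control spots and outlier-flagged spots were left out (120 on the S180 array, 195 on the DMSO array). Log2 processed signals were averaged per probe and the 75th percentile of each array subtracted. A gene's value is that of its brightest probe, by the mean over both arrays, among probes well above background on both. No test was possible with 1 array per group. The steps were tested on simulated data. Alternatives used limma 3.58.1 in R 4.3.3. Members were named by the list. The rule gave full values to members 1.5-fold apart (there were none), the 10 brightest members and the enzyme and lineage factor groups. Signals of other members, among them Kit, Oca2, Trpm1, Rab27a, Hps3, Hps5, Atp7a and Lyst, were printed after their values were seen. Partners were named when 1.5-fold apart, not measured, or where their family is described; Mif, Pomc, Snai2, Tbx2, Tfec, Stx3, Sytl2, Furin, Gsta4 and the lowest and highest of each list were picked after their values were seen. Members and lists were chosen with earlier results of these data known.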

Additional observations from a re-analysis of the deposited data

How the results depend on the processing

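No paired analysis was possible because each group has 1 array, and none could be left out. The counts of members past 2-fold stayed 0 under all 10 alternatives, and those 1.5-fold higher also. Members 1.5-fold lower numbered 0 except without scaling, when there were 5 (Hps3, Hps5, Kit, Oca2 and Trpm1), and on the scale of 8 spike-in transcripts, when there were 6 (the same 5 and Rab27a). On those scales the median of all measured genes was -0.28 and -0.35, with 9.01% and 14.3% of them 1.5-fold lower. Pathway partners 1.5-fold lower numbered 4 without scaling, 8 on the spike-in scale, 1 with quantile normalization, 1 in the deposited table (Tfec both times) and 1 with no filter on dim probes (Birc7). Partners 1.5-fold higher numbered 0 without scaling and 0 on the spike-in scale, and 4 with no filter. Against the median gene the members' median was -0.06. Scaling by the median, by probes well above background or by spike-ins, or no scaling, shifts every gene equally and could not move this value. It was -0.074 with quantile normalization, -0.073 in the deposited table, whose columns have identical quantiles, and -0.073 with cyclic loess. With normexp it was -0.093, with no filter -0.028, and with the mean of a gene's probes -0.073. Over the settings that could move it, the value thus ran from -0.093 to -0.028. No error of this median is given, since the spread of replicate spots does not measure it. Over all genes, those 1.5-fold higher and lower numbered 259 and 59 with normexp at its offset of 50 (74 and 7 at 2-fold). With no filter they numbered 3959 and 2064 (1778 and 812 at 2-fold). At 2-fold they numbered 62 and 173 without scaling and 49 and 257 on the spike-in scale. The causes were not tested. Probes named through accessions left 42 members measured, as did the flag on either array, and 17 members were in the brightest 10% of genes with normexp and in the deposited table too.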
